A study of Bos indicus with 9 samples.

Results

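Open chromatin of the hypothalamus was compared with that of skeletal muscle in Brahman (Bos indicus) heifers. The comparison used every peak of the hypothalamus and muscle lists that lay on chromosomes 1 to 29 and started at or beyond 1 Mb, which gave 68177 of 78528 hypothalamus peaks and 28554 of 40104 muscle peaks, or 96731 of the 140923 peaks in the 3 lists of the series. Accessibility was measured by ATAC-seq, in which a transposase cuts DNA that is not covered by nucleosomes and the fragments are sequenced. Frozen tissue came from 3 unrelated, post-pubertal animals, and each gave both tissues, so 3 hypothalamus and 3 muscle libraries (heifers 2047, 2054, and 2057) stood behind the lists. No treatment separated the groups, and the labels name neither the muscle nor the part of the hypothalamus that was taken. The 3 heifers of a tissue were merged into 1 consensus list by the peak caller, which left no value for a single animal, so the tissues were compared without a test and the intervals below cover counting error only.

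Nearly every cell opens the promoters of genes needed for basic functions, while enhancers, which lie in introns and between genes, open mainly in the cell types that use them. Skeletal muscle consists largely of multinucleate fibers packed with sarcomeres, the contractile units built from titin, nebulin, actin, and myosin. The hypothalamus holds many kinds of neurons that release neuropeptides, together with astrocytes, tanycytes, and the oligodendrocytes that wrap axons in myelin. In bulk tissue, more cells of a type and wider opening in each cell cannot be told apart.

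The hypothalamus list was 2.39 times as long as the muscle list and covered 3.09 times as many bases, 58.3 Mb against 18.8 Mb. Median peak length was 567 bp (quartiles 353 to 1062) in hypothalamus and 523 bp (350 to 815) in muscle. Peaks of at least 2 kb made up 8.12% of the hypothalamus list and 1.71% of the muscle list. The summit −log10 p, which is the strength of the highest point of a peak combined over the 3 heifers, had a median of 5.99 in hypothalamus and 5.16 in muscle, and 23.4% and 5.01% of peaks reached 10. Read depth is not part of the lists, and its part in the difference in size was not tested. Several comparisons were therefore also made with the 28554 hypothalamus peaks of highest summit, all at 6.77 or above, against the whole muscle list. These were the shares, pairs, chromosomes, windows, peak counts around genes, and start-site counts on chromosome 1 and for listed muscle, neuronal, and hypothalamic genes. The rest used the full lists only, among them the deciles, distances, genomic features, and medians of shared and unshared peaks. At the edge of the rule, the 72 hypothalamus peaks that started between 0.9 and 1.0 Mb had a median summit of 5.65 and the 101 between 1.0 and 1.1 Mb a median of 5.78. The corresponding 38 and 58 muscle peaks had medians of 4.89 and 4.93.

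Most muscle peaks were also open in hypothalamus, whereas most hypothalamus peaks had no muscle counterpart. With 1 bp of overlap counted as shared, 17431 muscle peaks (61.0%, 95% Wilson interval 60.5 to 61.6) met a hypothalamus peak, and 16051 hypothalamus peaks (23.5%, 23.2 to 23.9) met a muscle peak. With lists of equal size, the shares were 49.3% (48.7 to 49.9) of muscle peaks and 44.1% (43.6 to 44.7) of hypothalamus peaks. The shared sequence came to 12.6 Mb, which was 66.6% of the muscle bases and 21.5% of the hypothalamus bases.

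The strongest peaks of either tissue were mostly open in both. In deciles 1 to 5 of the hypothalamus list by summit, 7.26% to 9.33% of peaks were shared, against 29.3% in decile 8, 56.6% in decile 9, and 79.6% in decile 10. The muscle list ran from 43.2% in decile 1 to 96.1% in decile 10, where 110 of 2855 peaks were open in muscle alone. In decile 10 of the hypothalamus list, 1391 of 6817 peaks had no muscle overlap. The increase began late in hypothalamus and was spread over the whole range in muscle, as the plot of sharing by strength shows.

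**Figure D1:**
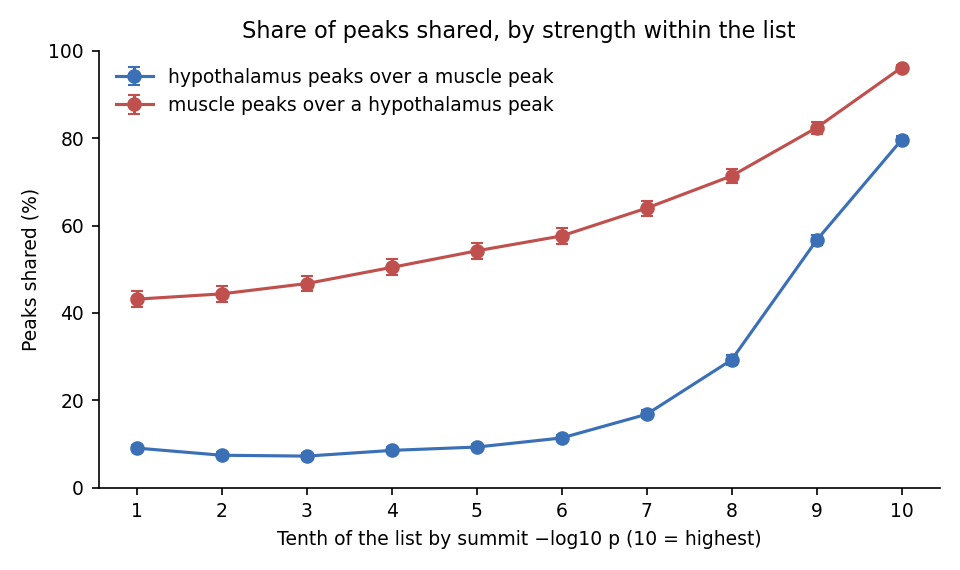
Percentage of peaks that overlap a peak of the other tissue (vertical axis) in each decile of the hypothalamus list (blue) and of the muscle list (red), ordered by summit −log10 p (horizontal axis). Bars are 95% Wilson intervals. Sharing reached 79.6% in decile 10 in hypothalamus and 96.1% in muscle.

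Peaks open in 1 tissue were shorter and weaker than shared ones. Hypothalamus peaks without overlap had a median length of 476 bp and a median summit of 5.36, against 1408 bp and 12.4 for shared ones. In muscle, the medians were 405 bp and 4.52 without overlap and 644 bp and 5.85 with it. A muscle peak without overlap lay a median of 7.85 kb (quartiles 2.57 to 22.5) from the nearest hypothalamus peak, and 56.1% of these were within 10 kb of one. A hypothalamus peak without overlap lay 26.3 kb (7.66 to 83.9) from the nearest muscle peak, and 29.5% were within 10 kb. These distances follow the density of the list searched. Muscle peaks without overlap stood closer to the next peak of their own list (median 4.61 kb) than shared muscle peaks did (7.36 kb), and in hypothalamus both medians were 3.83 kb.

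Promoters were the part of the genome most often open in both tissues. Genomic features, in which a promoter reaches 3 kb from a start site, were read for the annotated part of chromosome 1, up to 96.996 Mb, where 1840 of 1845 hypothalamus peaks and 623 of 625 muscle peaks had an annotation. Promoters held 14.3% (95% Wilson interval 12.8 to 16.0) of the hypothalamus peaks and 30.8% (27.3 to 34.6) of the muscle peaks. Split by sharing, the tissues came within each other's intervals. Promoters held 48.6% (43.3 to 54.0) of shared hypothalamus peaks and 49.9% (44.6 to 55.1) of shared muscle peaks. Shared peaks of the tissues overlap each other by definition, so these shares were bound to be close. Among the peaks open in 1 tissue, they held 6.77% (5.61 to 8.15) in hypothalamus and 6.57% (4.20 to 10.1) in muscle.

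Seen from the feature, 61.4% (55.4 to 67.0) of hypothalamus promoter peaks and 90.6% (85.7 to 94.0) of muscle promoter peaks were shared. Intronic peaks were shared in 7.08% of cases in hypothalamus and 27.3% in muscle, and distal intergenic peaks in 12.5% and 45.3%. Of the peaks open in a single tissue, distal intergenic sequence held 60.8% in hypothalamus and 59.5% in muscle, and introns held 27.9% and 32.1%.

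Start sites were counted over the 296 genes that had a gene model on the same part of chromosome 1, with a peak within 1 kb counted as open. The start site was open in both tissues for 165 genes (55.7%), in hypothalamus only for 36 (12.2%), in muscle only for 7 (2.36%), and in neither for 88. With lists of equal size, 20 were open in hypothalamus only and 14 in muscle only. Over all 1939 genes with a gene model, a choice added after seeing the data, 1295 (66.8%) were open in both, 196 (10.1%) in hypothalamus only, and 35 (1.81%) in muscle only. A gene has a model here only if it was the nearest gene to some annotated peak, which favors genes with open start sites. Of the 1295 genes open in both, the start-site peak was at least 50 percentile points higher in hypothalamus for 64 and in muscle for 4. Percentiles were taken within each full list, where these peaks had a median of 92.3 in hypothalamus and 81.4 in muscle. They were not ranked among the 1295 genes alone, so the direction may depend on the list.

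The 5 genes with the strongest start-site peaks in a single tissue were named after their values were seen. In muscle only, they were SPEG, a kinase of striated muscle, at percentile 97.3 of AUC within the muscle list, DUSP27 at 71.0, FBXL22 at 69.9, ODF3L1 at 69.3, and KLHL41, a protein of the sarcomere, at 68.7. In hypothalamus only, they were FUT7, a fucosyltransferase, at percentile 99.99 of the hypothalamus list, TMC6 at 99.8, GAL3ST1, the sulfotransferase that makes the myelin lipid sulfatide, at 99.7, TF, which encodes transferrin, at 99.6, and KLF15, a zinc finger factor, at 99.3.

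Strength was compared at sites where exactly 1 hypothalamus peak met exactly 1 muscle peak. There were 14385 such pairs, which held 89.6% of the shared hypothalamus peaks and 82.5% of the shared muscle peaks. The hypothalamus peak was the longer one in 86.7% of pairs, with a median length ratio of 1.87 (quartiles 1.31 to 2.68), and the muscle peak lay wholly inside it in 78.3%. The summits were a median of 28 bp apart (6 to 78), and 79.6% were within 100 bp, so the pairs mostly shared their highest point and differed in width.

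AUC is the area of the signal above the threshold of the peak caller, and its percentile within a list places a peak among all peaks of its tissue. Over the 14385 pairs, the Spearman rank correlation of the AUC percentile was 0.646, that of the summit 0.682, and that of length 0.551. The points share DNA sequence and the same 3 animals, and no p is given. The AUC percentile was at least 50 points higher in hypothalamus in 1665 pairs (11.6%) and in muscle in 259 pairs (1.8%). Ranked among the pairs alone, the order turned, with 343 pairs higher by that much in hypothalamus and 553 in muscle. Shared peaks sat high in the longer hypothalamus list, at a median percentile of 83.9 against 63.4 in muscle. Pairs higher in hypothalamus had median lengths of 1291 bp in hypothalamus and 356 bp in muscle, and pairs higher in muscle had 397 bp and 849 bp.

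**Figure D2:**
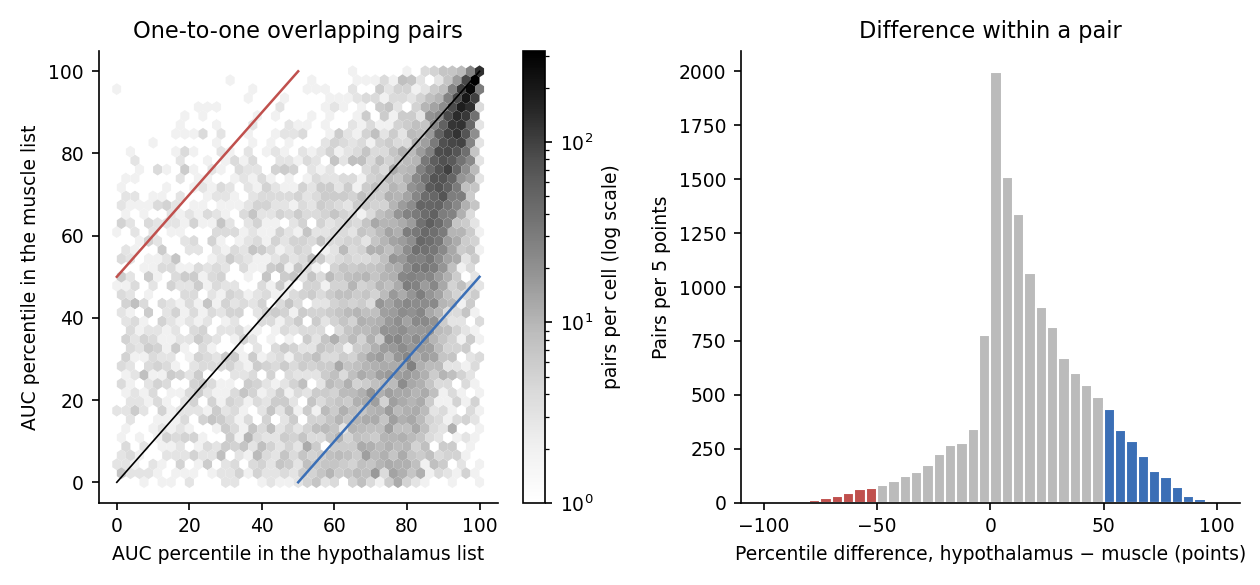
Left, AUC percentile in the hypothalamus list (horizontal) and in the muscle list (vertical) for the 14385 one-to-one pairs, with the number of pairs per cell in grey on a log scale, the line of equal percentile in black, and differences of 50 points in blue and red. Right, number of pairs by percentile difference in steps of 5 points, with 1665 pairs at or beyond 50 points toward hypothalamus (blue) and 259 toward muscle (red).

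All coordinates are of ARS-UCD1.2. The pair with the widest difference toward hypothalamus lay at chr19:54019149-54029178 over the gene model of TMC6, with a 10030 bp hypothalamus peak at percentile 99.8 and a 439 bp muscle peak at percentile 0.04. That muscle peak was not within 1 kb of the TMC6 start site, which was therefore counted above as open in hypothalamus only. The next pair lay at chr11:106017594-106030857, with a 13264 bp hypothalamus peak at percentile 99.9 over a 239 bp muscle peak at 0.94. It fell between C8G and FUT7, a stretch that holds PTGDS, a prostaglandin D synthase abundant in brain, and ABCA2, a lipid transporter of oligodendrocytes. The other pairs of the first 5 were at chr21:55261188-55266460 (99.1 against 2.58), at chr19:57182778-57187284 over TTYH2, a membrane protein of the tweety family (97.6 against 1.60), and at chr11:88361571-88364779 (97.3 against 1.77). In each of the 5, a broad hypothalamus peak of 3209 bp or more met a muscle peak of at most 587 bp.

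Toward muscle, the widest difference was at chr26:12532637-12532924, where a 288 bp hypothalamus peak at percentile 0.70 met a 2777 bp muscle peak at 96.2. A pair at chr3:9536456-9537138 stood at 1.94 in hypothalamus and 93.4 in muscle. It fell between DCAF8 and IGSF8, a stretch that holds, among others, PEA15, ATP1A4, and CASQ1, the calcium store protein of the sarcoplasmic reticulum. The stretch as a whole had 24 hypothalamus peaks (9 at equal list size) and 13 muscle peaks. The remaining 3 were at chr24:42764785-42765016 (0.07 against 95.3), at chr14:2564527-2565132 (6.60 against 98.1), and at chr1:152696729-152696973 (3.36 against 94.7), the last 1462 bp from the gene model of ANKRD28.

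Of the pairs, 1914 were in the top 10% of both lists. The 5 pairs with the highest lower percentile were nearly the same interval in both tissues. The first, at chr2:121566472-121576318, was 9847 bp long in hypothalamus with a summit of 34.8 and 9843 bp in muscle with a summit of 29.01. The second, at chr27:6219464-6226228, was 6765 bp and 6760 bp long, with summits of 37.6 and 31.1, and lay 1853 bp from MIR2887-2. The others were at chr21:33010464-33024395, at chr16:81001300-81005968, 58257 bp from TNNT2, the cardiac troponin T gene, and at chr21:2080083-2088956, 125100 bp from SNURF, an imprinted gene. In the latter 3, the muscle summits (15.4, 23.7, and 16.4) exceeded those of hypothalamus (14.1, 20.4, and 13.9). Both ends agreed within 50 bp in 8 of the 100 pairs with the highest lower percentile and in 5.39% of all pairs.

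Some wide peaks of one tissue covered several peaks of the other. A hypothalamus peak spanned at least 2 muscle peaks in 1354 cases, with a median length of 2657 bp, and a muscle peak spanned at least 2 hypothalamus peaks in 177. The hypothalamus peak with the most, 8 muscle peaks, was 15174 bp long at chr15:29269958-29285131.

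The hypothalamus peaks of largest AUC with no muscle overlap were broad. The first was 21652 bp at chr19:51556113-51577764, with a summit of 23.9. The second was 19040 bp at chr11:106054875-106073914, over the start site of FUT7 and in the stretch between C8G and TUBB4B that also holds PTGDS and ABCA2, with a summit of 20.1. The others were 14210 bp at chr7:17971068-17985277, 10997 bp at chr25:41764223-41775219, and 8545 bp at chr15:75928088-75936632, and the gene model nearest to any of these 3, MICALL2, was 283953 bp from the peak on chromosome 25.

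Of the 5 muscle peaks of largest AUC with no hypothalamus overlap, 2 lay in the stretch of TTN, which encodes the sarcomere spring titin. They were 5935 bp at chr2:18337070-18343004, with a summit of 7.28, and 6967 bp at chr2:18117794-18124760, with a summit of 5.59. The largest was 7319 bp at chr29:49534178-49541496, with a summit of 9.51. It fell between CD81 and PNPLA2, a stretch of 29 genes that holds IGF2, a growth factor gene, and TNNT3 and TNNI2, which encode troponins of fast fibers. The other 2 were 3961 bp at chr16:79691406-79695366 and 2872 bp at chr18:14044685-14047556, with summits of 8.81 and 11.7.

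Chromosomes differed in their balance. The ratio of hypothalamus to muscle peaks was lowest on chromosome 18 at 1.98 (95% interval 1.86 to 2.11), followed by chromosome 25 at 1.99 and chromosome 19 at 2.00, and highest on chromosome 24 at 3.31 (2.98 to 3.68). With lists of equal size, chromosome 19 was lowest at 0.891 (0.832 to 0.955) and chromosome 24 highest at 1.25 (1.10 to 1.41). The interval was above 1 on 4 chromosomes and below 1 on 3. The chromosomes with a low ratio were dense in peaks. Chromosome 19 carried 54.5 hypothalamus and 27.2 muscle peaks per Mb, and chromosome 24 carried 24.3 and 7.34. Over the 29 chromosomes, the rank correlation of peaks per Mb between tissues was 0.974, and that between the ratio and hypothalamus peaks per Mb was −0.864, 2 measures that share the hypothalamus count. The share of muscle peaks that met a hypothalamus peak ran from 49.5% on chromosome 20 to 69.6% on chromosome 29.

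Muscle peaks outnumbered hypothalamus peaks in 99 of 2472 windows of 1 Mb (4.0%). With lists of equal size, this was so in 873 windows (35.3%), and hypothalamus peaks were the more numerous in 1226 (49.6%). Peak number over the windows had a rank correlation of 0.820 between tissues. An excess of 20 or more peaks at equal list sizes occurred toward muscle in 63 windows and toward hypothalamus in 12, and the densest 1% of windows held 6.41% of muscle peaks and 4.86% of the equal number of hypothalamus peaks. By peak number, muscle peaks were thus the more concentrated in a few places. The hypothalamus peaks counted there all had a summit of at least 6.77, whereas the muscle list kept weak peaks down to 2.77. In the full hypothalamus list, the densest 1% of windows held 4.15% of peaks. With full lists, 75 windows had at least 10 hypothalamus peaks and no muscle peak, and the most muscle peaks in a window without hypothalamus peaks was 3. At equal list sizes, 13 windows had at least 10 hypothalamus peaks and no muscle peak, and 1 had at least 10 muscle peaks and no hypothalamus peak.

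**Figure D3:**
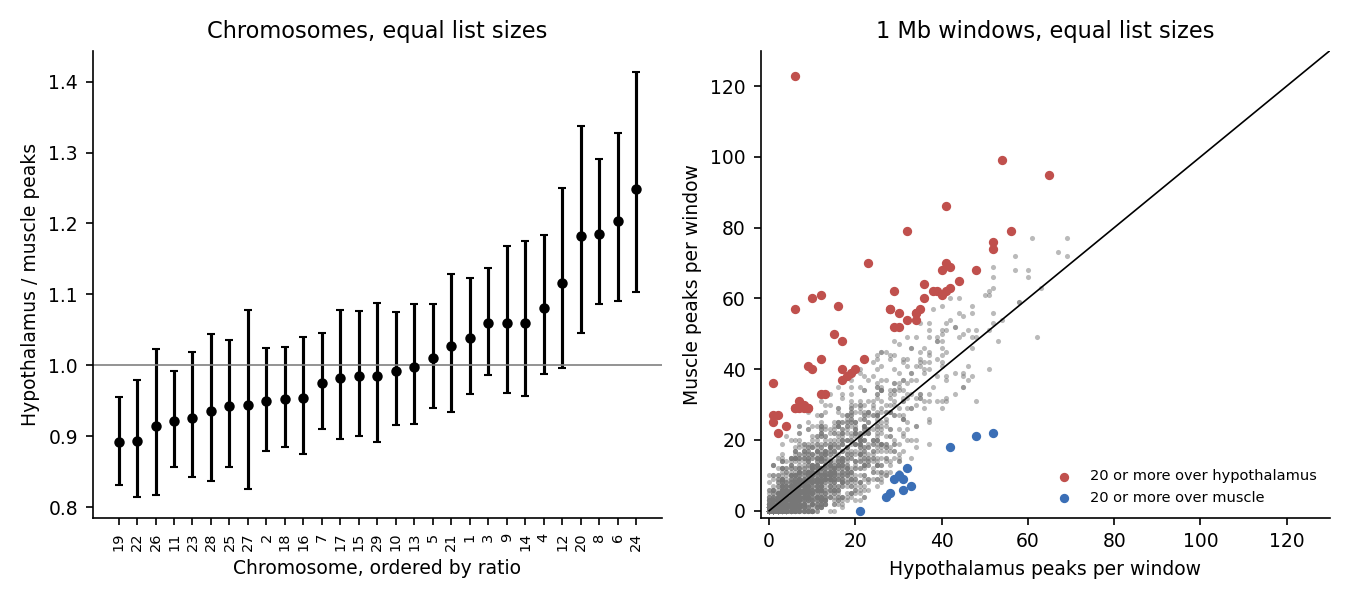
Left, ratio of hypothalamus to muscle peaks on each chromosome with lists of equal size, in ascending order, with 95% intervals from the counts; it ran from 0.891 on chromosome 19 to 1.25 on chromosome 24. Right, peaks per 1 Mb window in hypothalamus (horizontal, equal list size) and muscle (vertical), with the 63 windows of 20 or more extra muscle peaks in red, the 12 of 20 or more extra hypothalamus peaks in blue, and the line of equality in black.

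Of the 3 windows with the largest muscle excess at equal list sizes, 2 held giant genes of the sarcomere. The window from 18 to 19 Mb on chromosome 2 held 123 muscle peaks and 13 hypothalamus peaks (6 at equal list size) and includes TTN. The window from 44 to 45 Mb on chromosome 2 held 60 muscle and 27 hypothalamus peaks (10 at equal list size) and includes NEB, which encodes nebulin. Between them in rank stood the window from 9 to 10 Mb on chromosome 28, with 57 muscle and 12 hypothalamus peaks (6 at equal list size). It lies between COA6 and CABCOCO1, and the gene models used here did not resolve which genes it holds.

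Toward hypothalamus, the first 3 windows were from 2 to 3 Mb on chromosome 16, with 121 hypothalamus and 22 muscle peaks, from 102 to 103 Mb on chromosome 3, with 82 and 21, and from 28 to 29 Mb on chromosome 15, with 87 and 7. At equal list sizes the hypothalamus counts were 52, 48, and 33. The chromosome 3 window holds KDM4A, a histone demethylase, and PTPRF, a receptor phosphatase.

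Another pair of windows was chosen after their values were seen. The window from 85 to 86 Mb on chromosome 1 holds SOX2, a transcription factor of neural stem cells and glia, and had 56 hypothalamus peaks and no muscle peak. It was the window without muscle peaks that held the most hypothalamus peaks. The window from 24 to 25 Mb on chromosome 15 holds ZBTB16, a zinc finger factor, and had 70 muscle and 49 hypothalamus peaks (23 at equal list size).

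The peaks of the TTN stretch were many and weak. Between CCDC141 and PLEKHA3, over 367.7 kb (chr2:18020633-18388295), there were 112 muscle peaks that covered 29.5% of the sequence and 5 hypothalamus peaks that covered 0.660%. The muscle peaks had a median summit of 3.89, under the list median of 5.16, and 6 were in the top 10% of the list by AUC. Only 3 of the 112 met a hypothalamus peak, and none of the 5 hypothalamus peaks was strong enough to stay at equal list size. In the NEB stretch, which also holds RIF1, 54 muscle peaks with a median summit of 3.82 covered 8.89% of the sequence. The 3 hypothalamus peaks there included 1 shared with muscle, with a summit of 15.4 in hypothalamus and 8.26 in muscle.

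The OLIG2 stretch and the SOX2 window held mostly hypothalamus peaks. From OLIG1 to PAXBP1 (chr1:2499872-2786811), 23 hypothalamus peaks had a median summit of 6.29 and a highest of 18.6, and the single muscle peak, with a summit of 8.69, lay at the far end next to PAXBP1 and was shared. In the SOX2 window, the 56 hypothalamus peaks had a median summit of 5.90, near the list median of 5.99, and 3 were in the top 10% of the list by AUC. The strongest had a summit of 17.4 and lay 12.3 to 14.3 kb from the start site, and the start-site peak was 3002 bp long with a summit of 13.1.

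**Figure D4:**
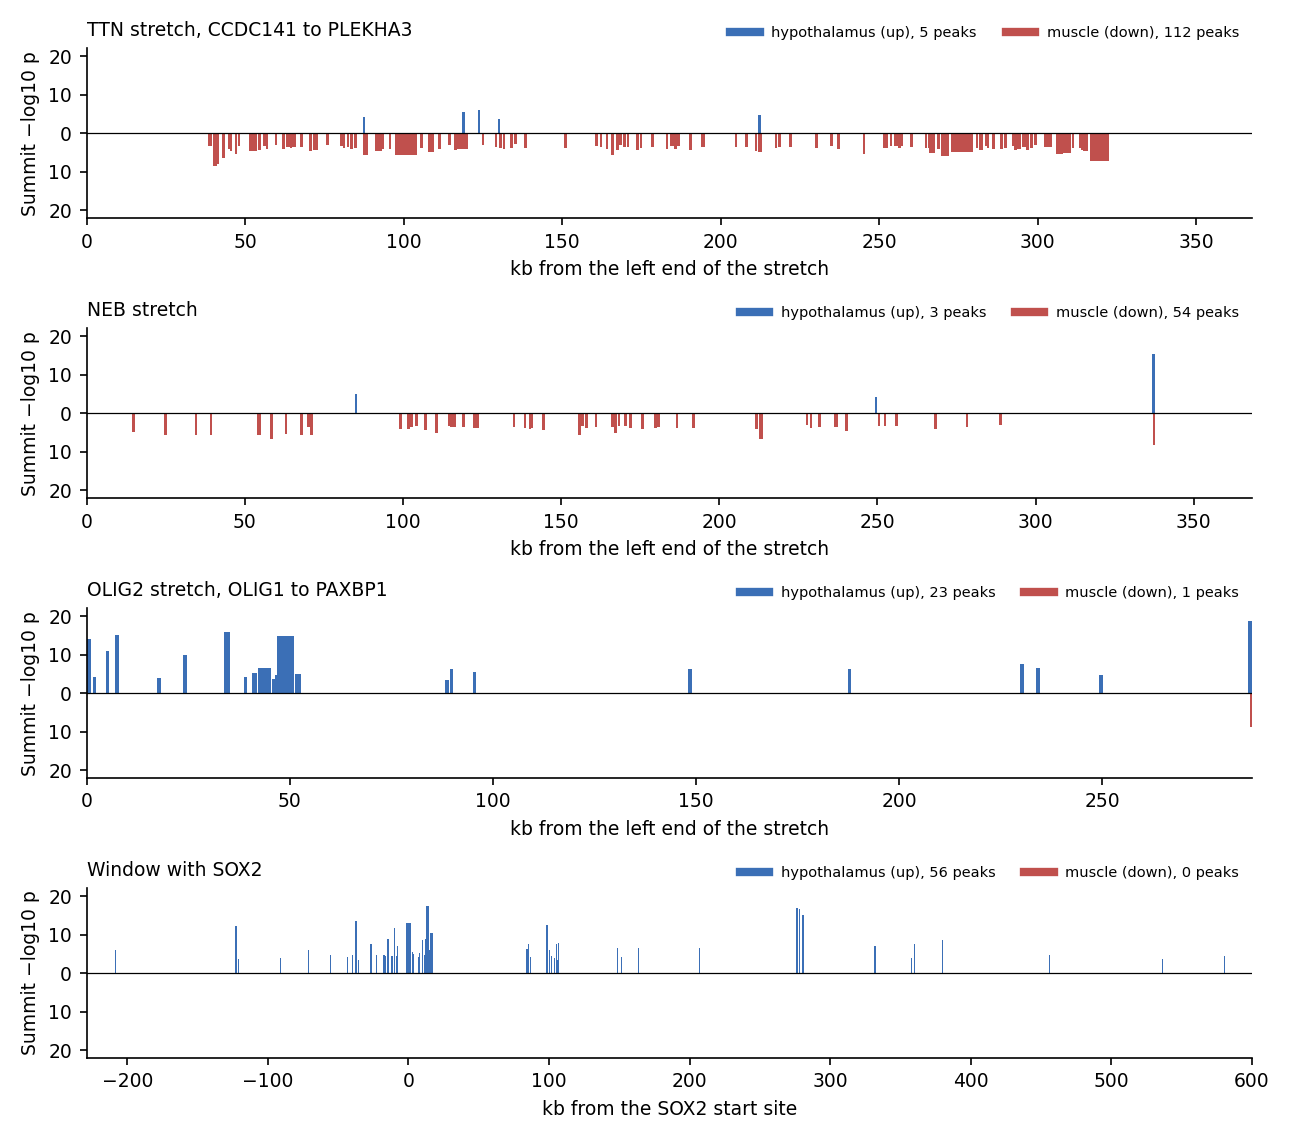
Every peak of the TTN, NEB, and OLIG2 stretches and of the 1 Mb window that holds SOX2, with its width along the horizontal axis (kb from the left end of the stretch or from the SOX2 start site) and its summit −log10 p as height, upward for hypothalamus (blue) and downward for muscle (red). The 112 muscle peaks of the TTN stretch were low and close together, and the SOX2 window had 56 hypothalamus peaks and 0 muscle peaks.

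Lists of genes of each tissue and cell type were counted in full. A gene was placed by its model, widened by 10 kb on both sides, or by the stretch between its nearest located neighbors, so a count belongs to the stretch and not to the gene alone. Counts of genes or stretches with more peaks in a tissue are at equal list sizes unless said otherwise, whereas start-site peaks and the peak numbers of a single gene or stretch are those of the full lists. As background, 28.8% of the 1939 genes with a model, widened by 10 kb, had more muscle than hypothalamus peaks and 26.6% had fewer. That background does not match stretches between neighbors, which can be far wider (1057 kb for ERMN), and none was taken for them. In windows of 1 Mb at equal list sizes, muscle had more peaks in 35.3% and hypothalamus in 49.6%. No background over genes was taken for the full lists, in which hypothalamus had 2.39 times as many peaks. Full-list majorities for hypothalamus below are therefore given without a share to set them against.

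Sarcomere genes were the clearest group on the muscle side. Of 40 listed, 7 could be placed, and all 7 had more muscle peaks (6 of 7 with full lists). Beside TTN and NEB, the stretch of MYOM3, an M-band protein, had 12 muscle and 6 hypothalamus peaks in the full lists, and that of LMOD2, a regulator of actin filaments, had 8 and 3. DES, the muscle intermediate filament desmin, had 11 muscle peaks and 1 hypothalamus peak in the full lists (0 at equal list size), with its start site at percentile 88.9 in muscle and 3.62 in hypothalamus. TPM3, a tropomyosin of slow fibers, had a start-site peak only in muscle, at percentile 28.4. Within its widened model, TPM3 had 4 muscle and 3 hypothalamus peaks in the full lists (1 of the latter at equal list size). The strongest of these by AUC stood at percentile 88.6 in muscle and 91.5 in hypothalamus. The exception with full lists was the wide stretch of XIRP2, an actin-binding protein, with 28 hypothalamus and 10 muscle peaks, which it shares with B3GALT1 and SCN7A.

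The other muscle lists were thinly covered. For excitation, calcium handling, and the neuromuscular junction, 4 of 26 genes were placed, with more muscle peaks at 3 and more hypothalamus peaks at 1, whereas with full lists hypothalamus had more at all 4. CHRNA1, a subunit of the acetylcholine receptor of muscle, had a start-site peak in muscle only, at percentile 49.9, and SGCA, a sarcoglycan, was open at the start site in both, at 79.0 in muscle and 78.3 in hypothalamus. Muscle energy metabolism had 2 of 20 genes placed, FABP3 and AMPD1, both with more muscle peaks. Of 26 myogenic regulators, 3 were placed. MEF2D, a transcription factor of muscle and neurons, had 18 muscle and 11 hypothalamus peaks in the full lists, with start-site peaks at percentile 96.5 and 96.3. The stretch of TBX15, a factor of fiber type, had 29 and 7. MSTN, which encodes myostatin, had no peak in either list.

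Glial genes were the clearest group on the hypothalamus side. Of 24 oligodendrocyte genes, 6 were placed and all 6 had more hypothalamus peaks. The stretches of OLIG1 and OLIG2 overlap, so they are not separate counts. The 4 with a gene model were each open at the start site in hypothalamus only, against 10.1% of all 1939 genes with a model (full lists). The 4 were GPR37, a receptor of oligodendrocytes, at percentile 99.0, and GPR17, a receptor of their precursors, at 96.2, with 2 others. Of the latter, OLIG1, a transcription factor of the lineage, stood at 94.4, and CLDN11, a tight junction protein of myelin, at 92.6. The stretch of ERMN, a cytoskeletal protein of myelinating cells, had 24 hypothalamus peaks in the full list (10 at equal list size) and no muscle peak. Of 22 genes of astrocytes, tanycytes, and ependyma, 3 were placed and all 3 had more hypothalamus peaks. SOX2 was open at the start site in hypothalamus only, at percentile 93.1, and S100B, a calcium-binding protein of astrocytes, in both, at 94.7 and 57.5. BCAN, a proteoglycan of the brain matrix, had 23 and 5 peaks in its stretch in the full lists.

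Neuronal lists were less one-sided. Of 50 genes of synapses and neuronal identity, 10 were placed, 4 with more hypothalamus peaks, 4 with more muscle peaks, and 2 even. With full lists, hypothalamus had more at 8 of the 10, among them the stretch of CNTNAP2, a neurexin family protein (29 against 3), and that of DSCAM, an adhesion molecule (21 against 2). MAP2, a microtubule protein of dendrites, and NLGN1, a synaptic adhesion protein, were open at the start site in hypothalamus only, at percentiles 32.3 and 68.9. RBFOX1, a splicing factor of neurons and muscle, had 7 muscle and 3 hypothalamus peaks in the full lists (0 of the latter at equal list size) and no start-site peak in either list.

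Of 50 transcription factors of the hypothalamus and forebrain, 8 were placed, 3 with more hypothalamus peaks, 3 with more muscle peaks, and 2 even, whereas with full lists hypothalamus had more at 7 and 1 was even. The stretch of BARHL2 had 16 hypothalamus peaks and no muscle peak in the full lists. DLX2 was open at the start site in hypothalamus only, at percentile 42.0, while its neighbor DLX1 was open in both, at 72.4 and 43.1, and their stretches overlap. TLE4, a corepressor, was also open in both, at 99.7 and 98.7. Of 37 neuropeptide and hormone genes, 3 were placed, all with more hypothalamus peaks in the full lists. At equal list size, hypothalamus had more at 1 (CHGA), muscle at 1 (SCG2), and 1 was even (SST). Both with a gene model, SST, which encodes somatostatin, and CHGA, which encodes chromogranin A, had no start-site peak in either list.

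Across these groups, 2 of 6 listed muscle genes with a gene model (33.3%, 95% Wilson interval 9.68 to 70.0) had a start-site peak in muscle only and none in hypothalamus only. Of 9 neuronal and hypothalamic genes, 3 (33.3%, 12.1 to 64.6) had one in hypothalamus only and none in muscle only. Over all 1939 genes with a model, these shares were 1.81% and 10.1%. These are values of the full lists, and at equal list size the muscle share was 50.0% and the neuronal and hypothalamic share 11.1%. At that size, of the 296 genes on the annotated part of chromosome 1, 14 were open in muscle only and 20 in hypothalamus only. No share at equal list size was taken over all 1939 genes. Too few defining neuropeptide genes were placed to check the hypothalamus by them.

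Markers of other cells were also counted. Housekeeping genes were open at the start site in both tissues in 14 of 14 cases, against 66.8% of all 1939 genes with a model. Having a model itself favors open start sites. Among the 14 were CHMP2A at percentile 99.9 in hypothalamus and 75.7 in muscle, and PSMB4 at 84.2 and 68.1. By peak number, 8 of the 14 had more muscle peaks and 0 more hypothalamus peaks at equal list sizes, against 4 and 5 with full lists. None of 3 pituitary genes had a start-site peak in either list. Of 5 hepatocyte genes, TF, which encodes transferrin and is also used by oligodendrocytes, was open at the start site in hypothalamus only, at percentile 99.6. So was AHSG, which encodes fetuin, at 83.1, and the other 3 were not open at the start site. At equal list sizes, 3 of the 5 had more hypothalamus peaks, 0 had more muscle peaks, and 2 were even. For endothelium and pericytes, 2 of 22 genes were placed, both with more muscle peaks by 1 peak each and both with more hypothalamus peaks in the full lists. For fibroblasts, tendon, and adipocytes 4 of 22 were placed, of which 3 had more hypothalamus peaks. No microglial gene of 18 could be placed. The HOX genes gave 6 stretches for 10 placed genes, 3 with more muscle peaks (2 with full lists) and 1 with more hypothalamus peaks, and the 5 stretches in the HOXD cluster overlap at their ends. HOXD10, a factor of posterior body position, had a start-site peak in muscle only, at percentile 33.5.

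**Figure D5:**
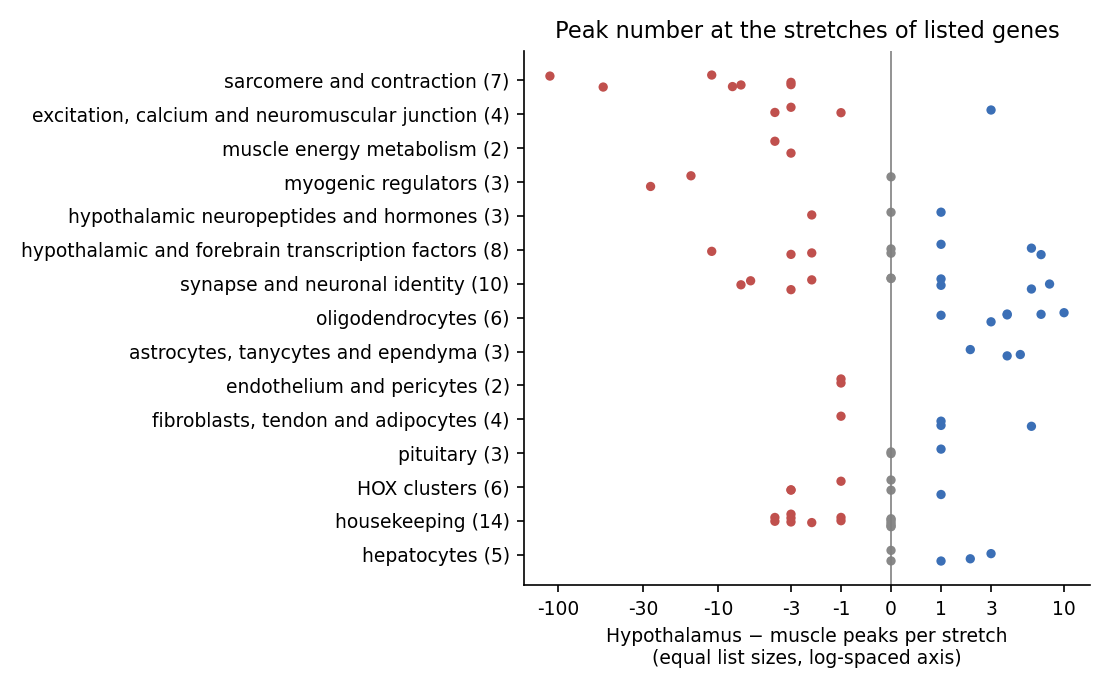
Difference in peak number between hypothalamus and muscle at equal list sizes (horizontal, log-spaced axis) for every stretch of the listed genes, 1 point per stretch, with the number of stretches in brackets. Points are blue where hypothalamus had more peaks, red where muscle had more, and grey where the counts were even. All 7 sarcomere stretches lay on the muscle side (6 of 7 with full lists) and all 6 oligodendrocyte stretches on the hypothalamus side.

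Among the 1939 genes with a model, those with the widest differences in peak number at equal list sizes were named after their values were seen. Toward muscle, ZBTB16 had 51 muscle and 32 hypothalamus peaks in the full lists (11 at equal list size), LOC100336984 had 38 and 3 (0), and ERGIC1, a membrane protein of the early secretory path, had 21 and 12 (4). Toward hypothalamus, FMNL2, a formin that builds actin filaments, had 48 hypothalamus and 3 muscle peaks (17 at equal list size), and EPHB1, a receptor of axon guidance, had 42 and 3 (15). APP, which encodes the amyloid precursor protein, had 26 and 4 (12), and CDK5RAP2 and CDK6 had the same difference as APP at equal list size. The start sites of ZBTB16 were open at percentile 98.8 in hypothalamus and 98.4 in muscle, those of FMNL2 at 96.2 and 58.9, those of EPHB1 at 96.9 and 31.4, and those of APP at 94.5 and 71.0. The start site of ERGIC1 was open at 82.7 in hypothalamus and 6.62 in muscle, the reverse of its peak numbers. The start-site peaks of EPHB1 and ERGIC1 thus differed by over 50 points, both toward hypothalamus, while that of ZBTB16 stood at almost the same percentile in both.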

How the data were processed

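ATAC-seq libraries of hypothalamus and muscle from 3 heifers, prepared by the Omni-ATAC method, were analyzed from 1 consensus peak list per tissue, which hold no read depth. HISAT2 placed the reads on ARS-UCD1.2, with several positions kept for a read that fitted more than 1, and Genrich 0.6.1 was then run by the authors over the 3 heifers together, whose p-values it joins by Fisher's method. The signal deposited by the authors is the AUC, and the deposited −log10 p at the summit is not corrected for multiple tests. Neither is scaled between tissues.

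Peaks were printed with starts counted from 1. Overlaps of 1 bp were computed with numpy 2.4.6, scipy 1.17.1, and pandas 2.3.3 under python 3.11.15. The shared counts were checked with bedtools 2.31.1. On 2190 simulated peaks of 2 lists, 7 of 7 planted counts were recovered. Plots used matplotlib 3.10.9. Intervals are at the 95% level, by Wilson's method for shares and on the log scale from the counts for ratios.

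No annotation of the build was at hand, so gene models and genomic features came from the annotation columns of the authors' supplementary peak tables, for the parts analyzed here. A listed gene without a model was placed between its nearest located neighbors in the gene order of the Tharparkar assembly, with at most 4 genes between them and a length within 1.25-fold of that assembly. These limits, the 10 kb margin, and the part of chromosome 1 used for start sites were set after the data were seen. The members and gene lists were chosen with earlier results of these data known.

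Sites named were the 5 peaks of largest AUC open in 1 tissue, the 5 pairs with the widest difference each way and the 5 strongest in both, the 3 windows of largest excess each way, and the chromosomes with the extreme ratios. Genes named were up to 5 per list with a start-site peak in 1 tissue and up to 3 in both, genes by the named sites, and, beyond the rule, placed genes given for their peak counts. Alternatives covered list size, overlap, percentile, window, and start-site distance. Liver was not used here, and 1 gene that the rule names is not reported here.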

Additional observations from a re-analysis of the deposited data

How the results depend on the processing

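Of 60 alternative values over 14 results, 27 left the value within its counting interval or, for counts, within 1.5-fold. The shares that moved are given for hypothalamus and muscle in turn, from 23.5% and 61.0%. They were 44.1% and 49.3% with equal numbers by summit, 45.2% and 50.5% with equal numbers by AUC, 22.8% and 68.2% with summits of at least 5, 11.4% and 27.1% with 50% of both peaks, 27.4% and 65.6% within 1 kb, and 20.5% and 48.8% with 200 bp around summits. The muscle share was 60.4% with 50% of the shorter peak, and the hypothalamus share 24.1% on whole chromosomes. Requiring 50% of both peaks left 7742 pairs, with 200 and 120 at least 50 points higher in hypothalamus and muscle and a rank correlation of 0.802. The correlation was 0.682 for summit, 0.560 for AUC per bp, and 0.695 within equal-number lists. Pairs higher in hypothalamus numbered 368 within equal-number lists, against 241 higher in muscle, and 343 against 553 when ranked within the pairs, the one setting of these in which the direction turned. At equal number, 873 windows had more muscle peaks. The window correlation was 0.851 for covered bases. The lowest and highest chromosome ratios were 0.891 and 1.25 at equal number and 2.56 and 4.36 for covered bases. Start sites at equal number were open in hypothalamus only for 20 genes and in muscle only for 14, and 11.1% of the neuronal and hypothalamic genes were open in hypothalamus only. List size and overlap rule changed these values by construction, and other causes were not tested. The 5 alternatives added after seeing the data moved nothing beyond these limits. A 2-fold length limit added no sarcomere or oligodendrocyte stretch. For fibroblasts, tendon, and adipocytes, it took the stretches with more hypothalamus peaks from 3 of 4 to 4 of 5. No paired analysis was possible because each list pools the 3 heifers, so no heifer could be left out either.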
